A study of Rattus norvegicus with 22 samples.

Results

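Collagens are the extracellular proteins whose chains wind around each other in a triple helix. The collagen genes were taken by symbol: every gene whose symbol was Col, a type number, the letter a and a chain number. The rule found 42 of the 32883 genes of the count table. By the kind of structure the chains build, 10 were fibrillar, 6 belonged to basement membranes, 5 formed beaded filaments, and 21 were of other kinds (fibril-associated, network-forming, transmembrane and multiplexin collagens, the last carrying several interruptions of the helix). Col1a2, Col6a3 and Col21a1 were absent from the table and were not analysed here.

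Each chain is made as a longer precursor, hydroxylated and glycosylated in the endoplasmic reticulum, assembled with partner chains, secreted, trimmed and cross-linked outside the cell. In the spinal cord most fibrillar collagen lies in the meninges, around large vessels and in nerve roots, and is made by fibroblasts, while the nervous tissue itself holds little of it. Type IV collagen forms the sheet under vessel walls and under the glial surface, and type VI collagen sits between that sheet and the fibrils.

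The RNA came from ventral cervical spinal cord (C3 to C6) of 22 Sprague-Dawley rats aged 3 to 4 months, each library from 1 rat. They were 5 intact males, 5 males gonadectomised (GDX), 6 intact females and 6 females ovariectomised (OVX), with tissue taken 2 weeks after surgery in the operated groups. The comparisons set operated against intact rats of each sex, and the sexes against each other with and without gonads. The paper describes the intact rats as age-matched and mentions no sham surgery. Loss of the gonads and the surgery itself therefore cannot be told apart. Library totals ran from 12371756 to 17571887 counts, with medians of 14196615 for intact and 15645521 for GDX males, and of 14640726 for intact and 14766802.5 for OVX females. Levels are in CPM, counts relative to the library total after scaling by edgeR's TMM factors, and levels of different genes are not compared because the values are not per length. The authors' mapping records give an average input fragment size for each library. By this size the libraries were split here into a shorter and a longer class. All 5 GDX males and all 6 OVX females were in the shorter class, with 2 of 5 intact males and 2 of 6 intact females. The class therefore differs between operated and intact groups, and values within the shorter class are given further on.

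The tissue label was checked against marker genes. In intact males the summed level of 8 neuron markers was 16657 ± 2961 CPM (SD, n = 5), that of 6 oligodendrocyte markers 23618 ± 1349 CPM and that of 6 astrocyte markers 5466 ± 236 CPM. The 7 motor neuron markers, which a ventral sample should hold, summed to 613 ± 168 CPM, and Chat had 316 to 972 counts in every rat. The 6 microglia markers summed to 154 ± 11.3 CPM. All 42 collagens together took 0.0820 ± 0.00715% of the counts of intact and 0.104 ± 0.00808% of the counts of GDX males. In females the share was 0.0937 ± 0.0121% intact and 0.107 ± 0.0105% after OVX.

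The 6 type IV genes lie in head-to-head pairs on opposite strands, so the bases between the starts of a pair serve as the upstream sequence of both members. They are shown because the type IV results are described pair by pair. RefSeq promoters on GRCr8 were found for 33 of the 42 members, with 1 listed start per gene. Between the starts lay 76 bases for Col4a2 and Col4a1, 412 for Col4a4 and Col4a3, and 1414 for Col4a6 and Col4a5. Capitals mark GGGCGG, the GC box, on either strand (CCGCCC when read from the other). CCAAT and TATAAA were searched as well and occurred in none of the stretches shown. The first line is everything between the starts of Col4a2 and Col4a1 on the plus strand (chr16:84885521-84885596). The next 4 are the 120 bases before the start of Col4a4 (chr9:91323578-91323697, minus), Col4a3 (chr9:91323870-91323989, plus), Col4a6 (chrX:109905945-109906064, minus) and Col4a5 (chrX:109907239-109907358, plus). The last is the same stretch of Col8a2 (chr5:143870649-143870768, plus), the member that passed with the largest fold change in males, which held 5 GC boxes with overlapping matches counted apart.
Col4a2 and Col4a1: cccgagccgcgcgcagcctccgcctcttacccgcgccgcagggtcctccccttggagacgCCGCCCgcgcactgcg
Col4a4: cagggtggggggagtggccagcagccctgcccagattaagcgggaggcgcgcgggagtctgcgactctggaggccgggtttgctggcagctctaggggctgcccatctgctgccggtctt
Col4a3: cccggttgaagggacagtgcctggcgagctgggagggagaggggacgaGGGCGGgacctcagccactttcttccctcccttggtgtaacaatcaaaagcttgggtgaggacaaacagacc
Col4a6: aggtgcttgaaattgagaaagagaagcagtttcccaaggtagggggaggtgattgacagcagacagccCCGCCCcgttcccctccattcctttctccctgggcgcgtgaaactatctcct
Col4a5: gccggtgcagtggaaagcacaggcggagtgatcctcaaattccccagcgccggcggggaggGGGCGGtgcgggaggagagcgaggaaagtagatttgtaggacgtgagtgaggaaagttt
Col8a2: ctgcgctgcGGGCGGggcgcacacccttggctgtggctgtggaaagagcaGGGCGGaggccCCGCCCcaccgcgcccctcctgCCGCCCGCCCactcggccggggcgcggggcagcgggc

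Across the 250 bases before the start, both strands read, GGGCGG occurred in 30.5% of 33469 promoters and in 19 of the 33 matched collagens (57.6%). CCAAT occurred in 34% of all promoters and in 10 collagens (30.3%), and TATAAA in 12.9% of all promoters and 3 collagens (9.09%). The full palindromes of the androgen response element, AGAACA and TGTTCT 3 bases apart, and of the oestrogen response element, GGTCA and TGACC 3 bases apart, occurred in 4 promoters (0.012%) and 8 promoters (0.0239%) of the whole table and in 0 of the 33 collagens. These matches describe the letters only, and their absence from this window says nothing about where a receptor binds.

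Summed by class, the collagens differed in how far the groups stood apart. Beaded filament collagens summed to 33.4, 34.4, 30.1, 32.1 and 25.5 CPM in intact males 1, 2, 3, 5 and 6, and to 45.8, 52.9, 62.7, 84.6 and 73.9 CPM in GDX males 1, 2, 4, 5 and 6. Every GDX male was above every intact male. The fibrillar sum was 423, 415, 382, 406 and 350.1 CPM in the intact males and 453, 485, 549, 669 and 617 CPM in the GDX males, again without overlap. Basement membrane collagens summed to 134, 152, 136, 161 and 143 CPM and 180.3, 175, 155, 167 and 142 CPM, and these ranges overlapped. The sum of the other collagens was 243, 263, 221, 245 and 218 CPM and 295, 259, 262, 296 and 285 CPM, where the ranges overlapped too. As log2 ratios of group means, GDX over intact males, the sums gave 1.04 for beaded filament, 0.49 for fibrillar, 0.18 for basement membrane and 0.23 for other collagens. In females, OVX over intact, the same ratios were 0.23, 0.18, 0.21 and 0.11, and the ranges of the groups overlapped in all 4 classes. Within the shorter class alone the male ratios were 0.94, 0.44, 0.06 and 0.14, and the female ratios 0.33, 0.29, 0.27 and 0.22, a setting chosen after seeing the data. These ratios of sums carry no test.

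**Figure D1:**
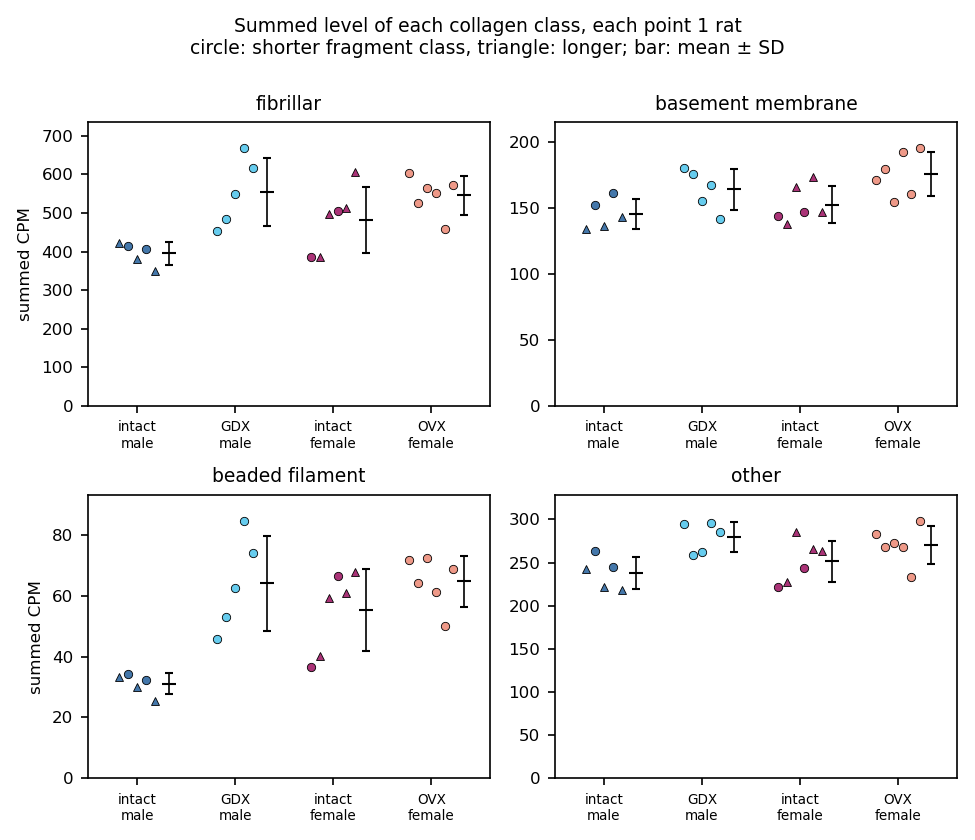
Summed level (CPM) of each collagen class in every rat, by group; points are rats (circle shorter, triangle longer fragment class) and bars show the mean and SD. Beaded filament collagens averaged 31.1 ± 3.51 CPM in intact males and 64 ± 15.6 CPM in GDX males, without overlap, while the basement membrane sums overlapped.

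After gonadectomy of males, 14 of the 35 collagens that passed the filter on low counts passed the edgeR test (adjusted p under 0.1, Benjamini-Hochberg over all genes tested), all 14 of them higher and 0 lower. Of all 14931 genes tested, 13.4% passed in either direction, 6.78% higher and 6.58% lower. At an unadjusted p under 0.05 there were 18 collagens and 23.8% of all genes, and DESeq2 called 15 collagens and 14.4% of all genes. In 10 collagens the lowest GDX male was above the highest intact male, as in 3.53% of all genes. The median log2 fold change of the 35 was 0.20, against 0.00 over all genes, and the range was -0.25 to 1.82. By class, 4 of 10 fibrillar, 2 of 6 basement membrane, 2 of 3 beaded filament and 6 of 16 other collagens passed. The p-values describe the spread between rats. In bulk samples fewer collagen-making cells and less collagen RNA per cell cannot be told apart, nor can more of either.

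**Figure D2:**
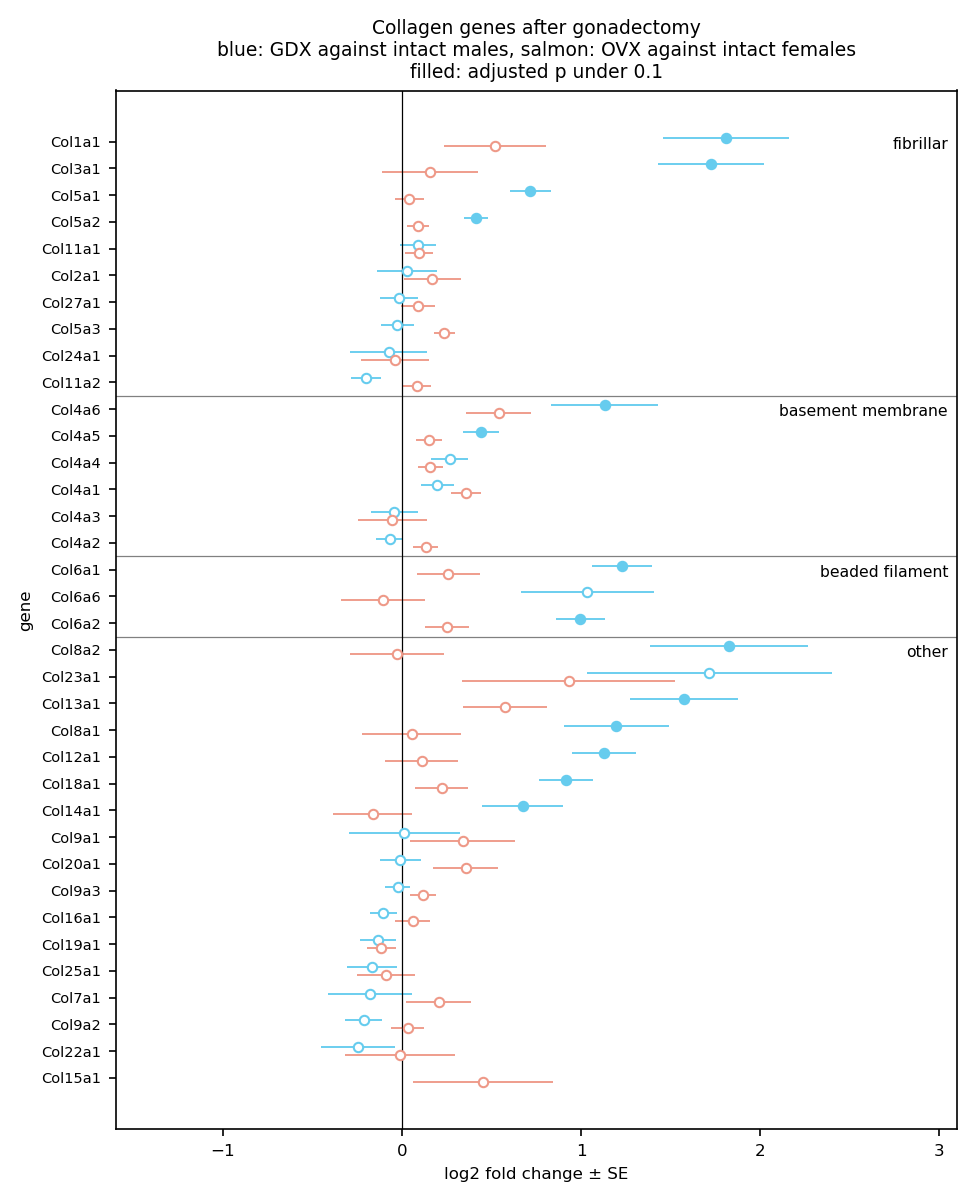
Log2 fold change with its SE for each collagen tested, in GDX against intact males and in OVX against intact females, grouped by class (blue males, salmon females); filled points passed the test. In males 14 collagens passed, all higher, and in females 0 passed.

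Among the fibrillar collagens, Col1a1 (ENSRNOG00000003897) encodes the main chain of type I collagen, the bulk fibril of meninges and connective tissue. Its level was 63.4, 33.2, 28.4, 25.8 and 15.9 CPM in intact males 1, 2, 3, 5 and 6, and 42.4, 84.6, 136, 160.2 and 160.2 CPM in GDX males 1, 2, 4, 5 and 6. GDX male 1 was below intact male 1, and the other GDX males were above all intact males. The log2 fold change was 1.81 ± 0.35 (SE) with an adjusted p of 0.00848. In females the lowest, median and highest Col1a1 levels were 27, 82.2 and 122 CPM intact and 72.1, 116 and 138 CPM after OVX, largely overlapping.

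Col3a1 (ENSRNOG00000003357), whose chain makes the thinner type III fibrils of vessel walls and pliable tissue, gave 43.1, 33.8, 35.3, 19.9 and 15.6 CPM in the intact males and 45.1, 71.4, 106, 149 and 115 CPM in the GDX males, in the same order of rats. GDX male 1 came just above intact male 1, so the ranges did not overlap. Its log2 fold change was 1.73 ± 0.29, adjusted p 0.00607. Female levels (lowest, median, highest) were 37.4, 86.4 and 151 CPM intact and 66.3, 85.6 and 134 CPM after OVX, with full overlap.

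Type V collagen starts fibril assembly and sets fibril width. Col5a1 (ENSRNOG00000008749) gave 29.6, 26.5, 29.8, 28.9 and 21.3 CPM in intact and 37.7, 36.5, 45.6, 55.2 and 48.5 CPM in GDX males, and Col5a2 (ENSRNOG00000003736) gave 34.2, 40.6, 37.2, 38.1 and 37.3 CPM and 44.2, 47.1, 49.8, 56.8 and 51.6 CPM. For both genes every GDX male was above every intact male. The log2 fold changes were 0.72 ± 0.11 and 0.41 ± 0.07, each with an adjusted p of 0.00554. The third type V chain, Col5a3, had a log2 fold change of -0.03 ± 0.09 and did not pass (adjusted p 0.897).

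The 6 other fibrillar members, which include the cartilage chains Col2a1 and Col11a1, did not pass, and their log2 fold changes lay between -0.20 (Col11a2) and 0.09 (Col11a1). Col11a2, the chain with the most counts of the class, gave 150.4, 179, 149.9, 185 and 168 CPM in intact and 174, 144, 122, 139.9 and 144 CPM in GDX males. The GDX values sat mostly at the lower end of an overlapping range, and the adjusted p was 0.151. The fibrillar class thus held members with unlike values: Col1a1, Col3a1, Col5a1 and Col5a2 rose, while the 6 others did not pass. Of these 6, Col11a2 passed as lower with the fragment class as a term and without GDX male 1.

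**Figure D3:**
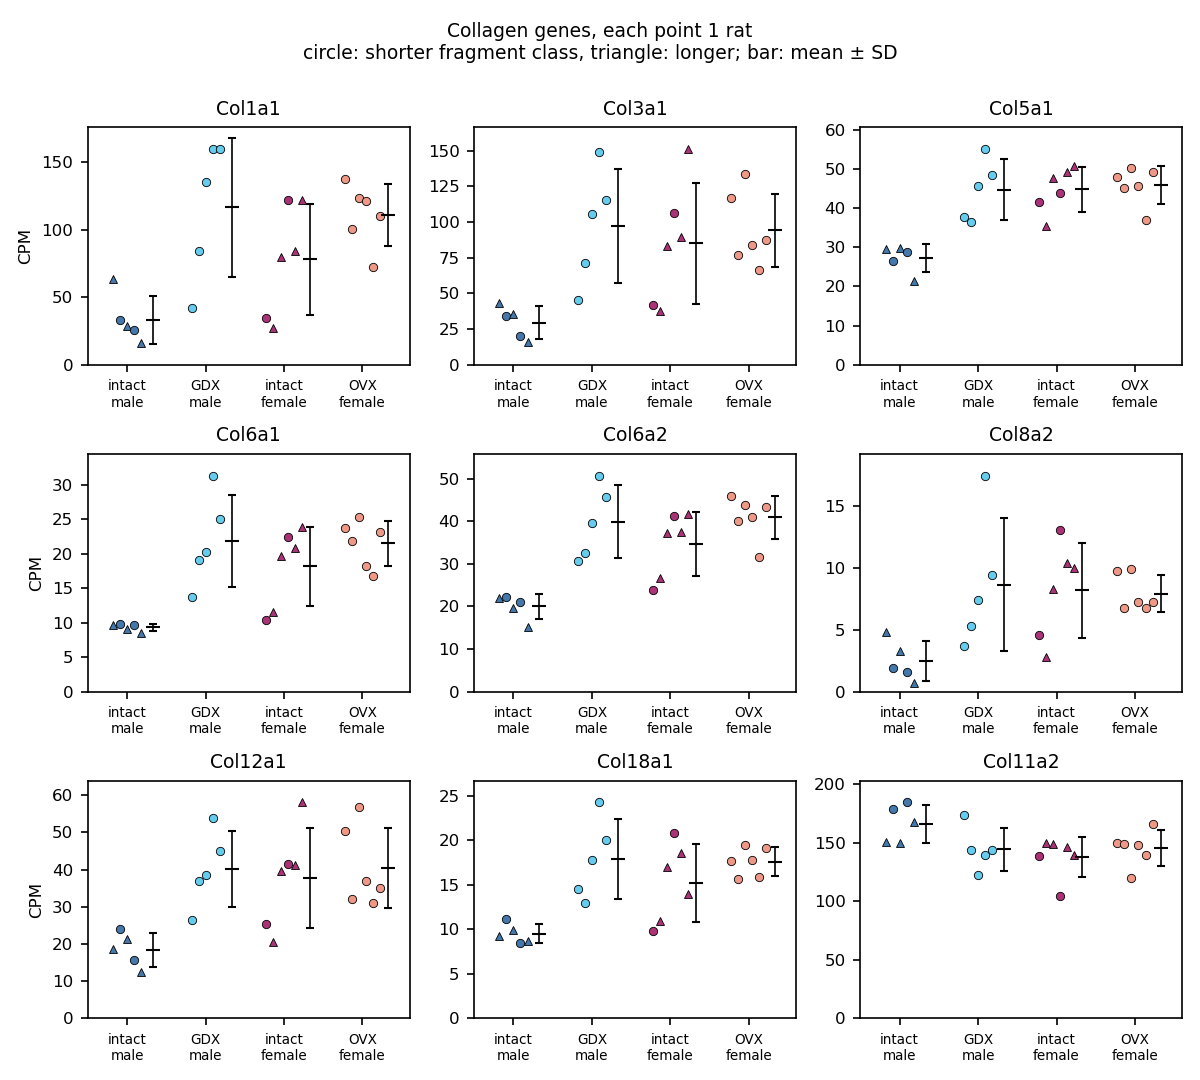
Level (CPM) of 9 collagens in every rat of the 4 groups; points are rats (circle shorter, triangle longer fragment class) and bars show the mean and SD. Col3a1, Col5a1, Col6a1 and Col6a2 of all GDX males lie above those of all intact males, and the female groups overlap.

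The beaded filament collagens form type VI microfibrils around cells. Col6a1 (ENSRNOG00000001249) gave 9.64, 9.77, 9.14, 9.58 and 8.46 CPM in intact males and 13.7, 19, 20.3, 31.3 and 25 CPM in GDX males, and Col6a2 (ENSRNOG00000001254) gave 22, 22.2, 19.6, 21 and 15.2 CPM and 30.7, 32.6, 39.7, 50.7 and 45.8 CPM. Both chains were higher in every GDX male than in any intact male, with GDX males 5 and 6 at the top. The log2 fold changes were 1.23 ± 0.17 (adjusted p 0.00288) and 1.00 ± 0.13 (adjusted p 0.00255). In females Col6a1 gave a lowest, median and highest level of 10.4, 20.3 and 23.9 CPM intact and 16.8, 22.4 and 25.3 CPM after OVX, and Col6a2 gave 23.9, 37.3 and 41.7 CPM and 31.5, 42.1 and 45.8 CPM. Intact females 1 and 2 sat low for both chains and the other intact females among the OVX females. Col6a6, a chain related to the third subunit, gave 0.567, 0.888, 0.453, 0.495 and 0.787 CPM in intact and 0.597, 0.808, 1.21, 1.7 and 2.28 CPM in GDX males. It had a log2 fold change of 1.04 ± 0.37 and just missed the threshold (adjusted p 0.101), with overlapping ranges.

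Basement membrane members are taken by the pairs whose upstream sequence is printed above, and no test compared the pairs. Col4a5 (ENSRNOG00000018951) gave 19.6, 25, 21.6, 24.5 and 21.1 CPM in intact and 29.6, 26.2, 28.5, 39 and 28.7 CPM in GDX males, and its neighbour Col4a6 (ENSRNOG00000056772) gave 1.63, 1.33, 1.81, 1.73 and 0.918 CPM and 1.53, 4.62, 2.97, 4.68 and 2.48 CPM. Ranges did not overlap for Col4a5, while GDX male 1 lay among the intact males for Col4a6. Both passed, with log2 fold changes of 0.44 ± 0.10 (adjusted p 0.0170) and 1.13 ± 0.30 (adjusted p 0.0304). Their chains join in basement membranes of smooth muscle and of some epithelia.

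Col4a1 (ENSRNOG00000016281) and Col4a2 (ENSRNOG00000023972) make the type IV collagen of nearly all basement membranes, those of vessels included. Col4a1 gave 42.6, 48.5, 42.9, 55 and 45.7 CPM in intact and 61.3, 60.1, 55.4, 46.5 and 45.6 CPM in GDX males, and Col4a2 gave 40.9, 49.3, 41.2, 45.2 and 43 CPM and 46.8, 46.5, 37.8, 40.4 and 37.7 CPM. The ranges overlapped for both. Neither passed, at log2 fold changes of 0.20 ± 0.09 (adjusted p 0.210) and -0.07 ± 0.08 (adjusted p 0.635). Col4a1 gave 0.05 with the fragment class as a term, 0.06 within the shorter class and 0.57 with the meninges and fibroblast level as a term, and Col4a2 gave -0.17, -0.17 and 0.15, none of which passed. In females Col4a1 had a lowest, median and highest level of 42.3, 45.7 and 56 CPM intact and 47.7, 60.2 and 68.5 CPM after OVX, and Col4a2 had 37.5, 41.8 and 47.2 CPM and 40.6, 45 and 53.3 CPM. Col4a3 and Col4a4, chains of the kidney filter and lung, had log2 fold changes of -0.04 and 0.27 in males and did not pass.

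**Figure D4:**
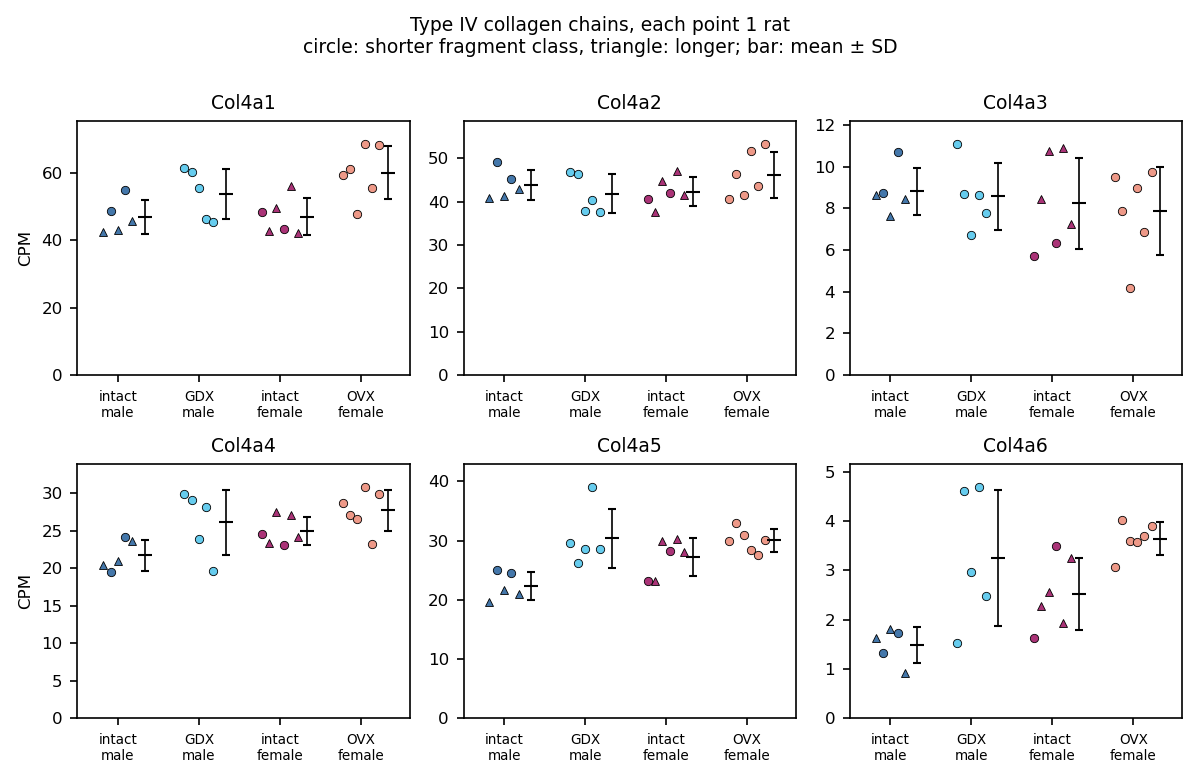
Level (CPM) of the 6 type IV collagen genes in every rat, by group; points are rats (circle shorter, triangle longer fragment class) and bars show the mean and SD. Col4a5 in the GDX males lay above the intact males, while Col4a1 and Col4a2 overlapped.

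Of the other classes, type VIII collagen builds a hexagonal lattice under endothelia and in vessel walls. Col8a2 (ENSRNOG00000010841) gave 4.82, 1.92, 3.25, 1.55 and 0.722 CPM in intact and 3.65, 5.31, 7.42, 17.4 and 9.39 CPM in GDX males, and Col8a1 (ENSRNOG00000039668) gave 2.55, 2.89, 1.51, 2.53 and 0.853 CPM and 3.72, 3.12, 5.33, 6.95 and 4.69 CPM. GDX male 1 was below intact male 1 for Col8a2, and for Col8a1 the ranges did not overlap. The log2 fold changes were 1.82 ± 0.44 (adjusted p 0.0210) and 1.20 ± 0.29 (adjusted p 0.0217). Fibril-associated collagens lie on the fibril surface: Col12a1 (ENSRNOG00000058470) gave 18.6, 24, 21.4, 15.7 and 12.5 CPM in intact and 26.5, 36.9, 38.5, 53.9 and 44.9 CPM in GDX males. All GDX males were above all intact males, at a log2 fold change of 1.13 ± 0.18 (adjusted p 0.00529). Col14a1 (ENSRNOG00000026415), of the same kind, gave 3.4, 2.52, 2.64, 2.91 and 1.97 CPM and 2.19, 4.21, 4.99, 4.96 and 5.08 CPM. Its ranges overlapped, and it passed by the narrowest margin, at 0.67 ± 0.23 with an adjusted p of 0.0831.

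Col18a1 (ENSRNOG00000001229), a multiplexin of vessel basement membranes and the source of endostatin, gave 9.28, 11.1, 9.97, 8.47 and 8.66 CPM in intact and 14.5, 12.9, 17.8, 24.3 and 20.1 CPM in GDX males. No GDX male overlapped the intact males, and the log2 fold change was 0.92 ± 0.15 (adjusted p 0.00554). Col13a1 (ENSRNOG00000000552), a transmembrane collagen found at adhesion sites and neuromuscular junctions, gave 1.42, 1.85, 1.06, 1.11 and 0.328 CPM and 2.45, 3.4, 3.91, 3.9 and 3.45 CPM. These ranges did not overlap either, at 1.58 ± 0.30 (adjusted p 0.00820). In females Col18a1 had a lowest, median and highest level of 9.79, 15.5 and 20.8 CPM intact and 15.6, 17.7 and 19.5 CPM after OVX, Col8a2 had 2.77, 9.13 and 13 CPM and 6.73, 7.22 and 9.87 CPM, and Col12a1 had 20.5, 40.5 and 58.1 CPM and 30.9, 36 and 56.8 CPM. The female groups overlapped for all 3 genes.

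The remaining 10 of the other collagens tested in males did not pass. Col23a1, a transmembrane collagen, had a log2 fold change of 1.72 ± 0.68 with counts from 15 to 520 over all rats (adjusted p 0.139). The other 9, which include the type IX chains of cartilage and the nerve-associated Col19a1 and Col25a1, lay between -0.25 (Col22a1) and 0.01 (Col9a1). The 7 members below the filter in males had few counts in every rat: Col10a1 0 to 6, Col17a1 0 to 12, Col26a1 0 to 5, Col28a1 0 to 7, Col6a4 1 to 15, Col6a5 0 to 15 and Col15a1 4 to 45. With no filter on low counts none of the 7 passed. Col15a1 (ENSRNOG00000060381), the other multiplexin, was tested in comparisons that held females, where its lowest, median and highest levels were 0.346, 0.859 and 1.82 CPM intact and 0.619, 1.11 and 2.51 CPM after OVX.

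The remaining genes that rose in GDX males had these lowest, median and highest levels in females. Col5a1 gave 35.4, 45.9 and 50.8 CPM intact and 37, 46.7 and 50.4 CPM after OVX, and Col5a2 gave 39.3, 44.6 and 49.7 CPM and 39.2, 47.7 and 51.4 CPM. Col4a5 gave 23.1, 28.2 and 30.4 CPM and 27.6, 30.1 and 32.9 CPM, and Col4a6 gave 1.63, 2.42 and 3.5 CPM and 3.06, 3.64 and 4.03 CPM. The female groups overlapped for these 4 genes. Col8a1 gave 2.01, 4.5 and 7.79 CPM and 3.2, 4.52 and 6.05 CPM, Col13a1 1.11, 2.55 and 3.35 CPM and 2.64, 3.3 and 4.96 CPM, and Col14a1 3.04, 4.38 and 8.47 CPM and 3.23, 4.38 and 5.31 CPM. Here too the groups overlapped.

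Markers of meninges and fibroblasts moved with the collagens. The list holds no collagen, and 19 of its genes were in the table. In GDX against intact males 16 of 16 tested were higher, beside 6.78% of all genes. The 19 summed to 142, 107, 116, 80.1 and 70.8 CPM in intact males 1, 2, 3, 5 and 6 and 140.3, 199.7, 268, 386 and 270.3 CPM in GDX males 1, 2, 4, 5 and 6. GDX male 1 was just below intact male 1, and the other GDX males were above every intact male, as for Col1a1. In females the lowest, median and highest sums were 119, 233 and 289 CPM intact and 196, 247 and 319 CPM after OVX. Igf2, the gene of the list with the most counts, averaged 27.4 CPM in intact and 82.8 CPM in GDX males, and 64.6 CPM in intact and 86.1 CPM in OVX females. No marker of the list was at 0 in every rat, though Dpep1 reached at most 2 counts and Ogn at most 14, and Ranbp3l was absent from the table. With the mean log2 level of this list as a term in the model, edgeR called 0 of the 35 collagens and 0.0268% of all genes as higher. At an unadjusted p under 0.05 there were 3 collagens and 5.49% of all genes. In that fit the log2 fold changes of the 14 were smaller: Col3a1 gave 0.01, Col5a1 0.16, Col5a2 0.20, Col6a1 0.37, Col6a2 0.30, Col4a5 0.18, Col4a6 0.45, Col8a1 0.13, Col12a1 0.24, Col13a1 0.78 and Col18a1 0.19. The other 3 turned negative, Col1a1 (-0.12), Col8a2 (-0.50) and Col14a1 (-0.19). The part of meningeal or fibroblast content in the collagen values was not tested, and with 16 of 16 markers higher in the GDX males it cannot be told apart from the group here.

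**Figure D5:**
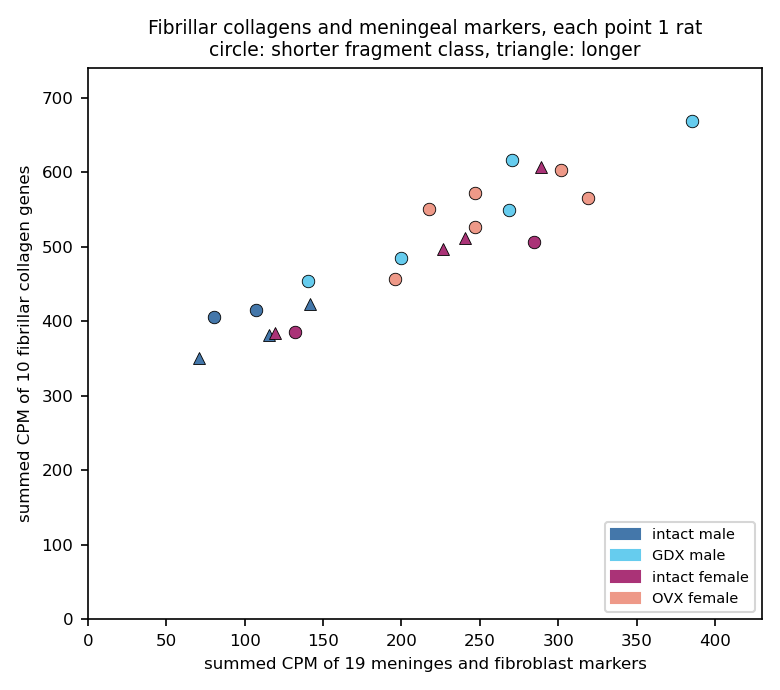
Summed level of the 10 fibrillar collagens against the summed level of 19 meninges and fibroblast markers (both CPM), 1 point per rat, coloured by group (circle shorter, triangle longer fragment class). Intact males and intact females 1 and 2 lie at the lower left, with GDX male 1 just above them, and GDX male 5 lies at the upper right.

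Other marker lists are given in the same order of rats, with the mean and SD for females. Endothelial markers, led by Flt1, summed to 120.4, 182, 142, 163 and 141 CPM in intact and 242, 274, 217, 222 and 199 CPM in GDX males, and to 183 ± 44.7 CPM in intact and 257 ± 38.9 CPM in OVX females. Of 11 tested 9 were higher in GDX than in intact males, beside 6.78% of all genes. In OVX against intact females 2 were higher, beside 0.0335% of all genes in either direction. Pecam1 was absent from the table. Pericyte and smooth muscle markers, led by Myh11, summed to 154, 177, 175, 190.5 and 167 CPM in intact and 226, 234, 207, 214 and 197 CPM in GDX males, with 183 ± 27.9 and 221 ± 21.3 CPM in the female groups. Of 10 tested 5 were higher in GDX males, again beside 6.78% of all genes. Both vessel marker sums were therefore higher in every GDX male than in every intact male. Among the GDX males they did not follow the fibrillar or beaded filament sums. GDX males 1 and 2 were highest for both vessel lists and for basement membrane collagens, but lowest for fibrillar and beaded filament collagens. The part of vessels was not tested. Values of nerve root markers are not given, and the part of nerve roots was not tested.

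The further lists follow as mean and SD, first for intact and GDX males and then for intact and OVX females. Cartilage and bone markers, led by Acan, summed to 51.3 ± 4.41, 42.9 ± 5.58, 48.4 ± 3.53 and 44.7 ± 6.02 CPM, with 1 of 4 tested lower in GDX males. Skeletal muscle markers, led by Myh2, summed to 37.8 ± 62.4, 23 ± 17.9, 24.3 ± 19.8 and 62.2 ± 75.5 CPM, and 0 of 3 passed in GDX males (0 at an unadjusted p under 0.05), with Myh1 and Myh4 absent from the table. In the GDX males 3 of 8 neuron markers and 1 of 7 motor neuron markers were lower, while 1 of 6 oligodendrocyte, 2 of 6 astrocyte and 0 of 6 microglia markers were higher, beside 6.58% of all genes lower and 6.78% higher.

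Within the shorter fragment class (5 GDX and 2 intact males) 9 collagens passed as higher, all of them among the 14, and 1.27% of all genes passed as higher. With the class as a term in the model 10 passed, namely 9 of the 14 as higher and Col11a2 as lower, against 2.25% of all genes higher. All 14 kept a positive fold change in both fits. Within the class Col1a1 gave a log2 fold change of 1.99, Col3a1 1.87, Col5a1 0.69, Col6a1 1.17, Col6a2 0.89, Col8a2 2.31, Col12a1 1.02 and Col18a1 0.88. All 8 passed in both fits. Col4a5 (0.29 within the class), Col4a6 (1.08), Col8a1 (0.81) and Col14a1 (0.66) passed in neither fit, Col13a1 passed only within the class (1.22), and Col5a2 only with the term (0.34). Among the 11 intact rats, the longer class against the shorter with sex as a term, edgeR called 0 of 37 collagens (0 at an unadjusted p under 0.05, and 0 by DESeq2), against 0.0066% of all genes (7.72% at an unadjusted p under 0.05, and 0.425% by DESeq2). The smallest adjusted p there was 0.668, for Col19a1 (-0.16 ± 0.08), followed by Col24a1 (0.36 ± 0.19) and Col27a1 (0.15 ± 0.09). Col1a1 gave 0.13 ± 0.40, Col3a1 0.26 ± 0.34, Col4a1 -0.09 ± 0.08, Col4a2 -0.06 ± 0.06, Col6a1 0.09 ± 0.20, Col6a2 -0.0022 ± 0.15, Col15a1 -0.12 ± 0.45 and Col18a1 -0.03 ± 0.18. Leaving out 1 rat changed the sign for Col1a1, Col6a1, Col6a2, Col15a1 and Col18a1.

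Leaving out 1 male at a time, between 13 and 17 collagens passed, with the highest count without GDX male 1, where 15 were higher and 2, Col11a2 and Col9a2, were lower. The share of all genes that passed moved as well, from 7.99% without GDX male 5, where 13 collagens passed, to 16.2% without GDX male 1. Col14a1 passed in only 2 of these 10 fits, being lost without any of GDX males 2, 4, 5 and 6 or intact males 2, 3, 5 and 6, so its call depends on which rats are included (0.58 to 0.84 in log2 fold change). The other 13 passed in every such fit.

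After ovariectomy edgeR called 0 of 36 collagens, with 5 at an unadjusted p under 0.05, and 0.0335% of all genes. Over all genes 10.2% had an unadjusted p under 0.05. DESeq2 called 2 collagens, Col4a1 and Col5a3, and 1.21% of all genes. Positive fold changes were found for 28 of the 36, beside 7605 of all 14910 genes tested. The median was 0.12, against 0.0025 over all genes. By edgeR the smallest p belonged to Col4a1 (0.36 ± 0.09, adjusted p 0.171), Col5a3 (0.24 ± 0.06, adjusted p 0.171) and Col4a6 (0.54 ± 0.18, adjusted p 0.312). Col5a3 gave a lowest, median and highest level of 40.6, 43.2 and 47.8 CPM intact and 44.5, 51.2 and 57.4 CPM after OVX, and the ranges overlapped. Of the genes that rose in GDX males, the female log2 fold changes were 0.52 for Col1a1, 0.16 for Col3a1, 0.26 for Col6a1, 0.25 for Col6a2 and 0.22 for Col18a1, with adjusted p of at least 0.514. Col4a2 gave 0.13 and Col15a1 0.45 ± 0.39, and neither passed. Within the shorter class, 6 OVX against 2 intact females, edgeR again called 0 collagens (6 at an unadjusted p under 0.05), against 0.0447% of all genes (6.24% at an unadjusted p under 0.05). The log2 fold changes there were 0.39 for Col4a1, 0.28 for Col5a3, 0.52 for Col4a6, 0.52 for Col1a1, 0.35 for Col3a1, 0.41 for Col6a1, 0.34 for Col6a2, 0.22 for Col18a1, 0.16 for Col4a2 and 0.19 for Col15a1.

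Between intact males and intact females 11 of 37 collagens passed, 10 of them lower and 1 higher in males, against 4.01% of all genes in either direction and 2.56% lower in males. At an unadjusted p under 0.05 there were 22 (15.5% of all genes), and DESeq2 called 18 (5.5% of all genes). This comparison uses the same intact males as the GDX comparison, so the values of both are set side by side and neither supports the other. Col5a1 gave a log2 fold change, males over females, of -0.72 ± 0.10 (adjusted p 0.00115), beside 0.72 in GDX against intact males. Col6a2 gave -0.79 ± 0.14 (0.0101) beside 1.00, and Col6a1 gave -0.95 ± 0.19 (0.0179) beside 1.23. In each of Col5a1, Col6a1 and Col6a2 every intact male was below every intact female, as in 1.48% of all genes. Col11a2 lay the other way, with every intact male just above every intact female (0.27 ± 0.08, adjusted p 0.112, not passed), as in 1.19% of all genes. Col3a1 gave -1.52 ± 0.33 (0.0245) beside 1.73, and Col12a1 gave -1.03 ± 0.22 (0.0244) beside 1.13.

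The others lower in intact males were Col6a6 (-1.21 ± 0.29, adjusted p 0.0389), Col8a2 (-1.74 ± 0.42, 0.0389), Col5a2 (-0.24 ± 0.06, 0.0435), Col18a1 (-0.67 ± 0.17, 0.0531) and Col14a1 (-0.85 ± 0.25, 0.0911), their ranges overlapping. Col5a3 was the member higher in males (0.24 ± 0.06, adjusted p 0.0513). Col1a1 did not pass (-1.23 ± 0.38, adjusted p 0.119), nor did Col15a1 (-1.10 ± 0.44, 0.232), Col4a1 (-2.3e-05) or Col4a2 (0.06). Of the meninges and fibroblast markers 11 of 16 tested were lower in intact males, beside 2.56% of all genes lower, and their part was not tested. The count of collagens that passed depended on the rats. It was 6 without intact male 5 and 7 without intact male 1 (beside 2.56% and 2.33% of all genes). Without intact female 1 or intact female 2 it was 16 (beside 5.25% and 4.11%). With 1 rat left out, Col14a1 passed in 2 of 11 fits, those without intact female 1 or 2 (-0.95 to -0.62 in log2 fold change). Col18a1 passed in 5, without intact male 2 or 3 or intact female 1, 2 or 6 (-0.77 to -0.56). Col5a3 lost its call without intact male 1 or 5 or intact female 4 or 6 (0.21 to 0.28), Col6a6 without intact male 1 or 5 (-1.35 to -1.07), Col8a2 without intact male 5 (-2.14 to -1.50) and Col5a2 without intact male 1 (-0.28 to -0.21), and Col1a1 passed without intact male 1 or intact female 1 or 2 (-1.59 to -1.05). Within the shorter class, 2 males against 2 females, 2 collagens and 0.225% of all genes passed, Col5a1 as lower (-0.62) and Col16a1, not among the 11, as higher. Of those that lost their call there, Col3a1 gave -1.47, Col6a1 -0.74, Col6a2 -0.58, Col12a1 -0.75, Col6a6 -1.04, Col8a2 -2.33, Col18a1 -0.63, Col14a1 -0.71, Col5a2 -0.09 and Col5a3 0.33. With the class as a term 10 collagens, the 11 without Col14a1, and 4.2% of all genes passed.

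Between GDX males and OVX females, all of the shorter class, edgeR called 0 of 36 collagens, against 0.232% of all genes. At an unadjusted p under 0.05 there were 0 collagens and 9.37% of all genes, and DESeq2 called 0 collagens and 0.862% of all genes. The members with the smallest p were Col4a2 (-0.14 ± 0.08, adjusted p 0.648), Col15a1 (-0.64 ± 0.40, 0.665) and Col9a2 (-0.17 ± 0.11, 0.665). Col1a1 gave 0.07 ± 0.25, Col3a1 0.05 ± 0.23, Col4a1 -0.16 ± 0.10, Col6a1 0.02 ± 0.16, Col6a2 -0.04 ± 0.12 and Col18a1 0.03 ± 0.13, and none of them passed. A p above the threshold does not show equal levels.

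Whether the male change differed from the female change was tested directly. For the interaction of sex and gonadectomy over all 22 rats edgeR called 0 of 37 collagens, against 0.116% of all genes. At an unadjusted p under 0.05 there were 16 collagens and 11.6% of all genes, and DESeq2 called 4 collagens and 1.63% of all genes. Col5a1 had the smallest adjusted p (0.113) at 0.68 ± 0.15, the male minus the female log2 change. Next were Col6a2 (0.75 ± 0.20, adjusted p 0.155), Col6a1 (0.98 ± 0.28, 0.164) and Col3a1 (1.57 ± 0.45, 0.164). Col1a1 gave 1.30 ± 0.51 (0.298), Col18a1 0.70 ± 0.23 (0.223), Col15a1 0.46 ± 0.63 (0.833), Col4a1 -0.16 ± 0.14 and Col4a2 -0.20 ± 0.11. With no filter on low counts edgeR called 1 collagen, Col5a1, and 0.134% of all genes. Within the shorter class edgeR called 0 (8 at an unadjusted p under 0.05), against 0.0311% of all genes (10.1% at an unadjusted p under 0.05), with 0.58 for Col5a1, 0.54 for Col6a2, 0.76 for Col6a1, 1.51 for Col3a1, 1.46 for Col1a1, 0.66 for Col18a1, 0.97 for Col15a1, -0.33 for Col4a1 and -0.33 for Col4a2. With the meninges and fibroblast level as a term the values were 0.22 for Col5a1, 0.06 for Col6a2, 0.0028 for Col6a1, 0.02 for Col18a1, -0.15 for Col3a1 and -0.63 for Col1a1, and the part of this tissue was not tested. Single rats moved the count over all rats, and the share of all genes moved as well. Without GDX male 1, 7 collagens passed (beside 1.75% of all genes), and without intact female 1, 4 passed (0.696%). There were 2 without GDX male 2 (0.708%), 1 without intact male 3 (0.28%) and 1 without intact female 2 (0.219%).

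Genes that handle collagen were followed as a list of enzymes and chaperones that fold and modify the chains (17 tested), proteins that trim and cross-link them (12) and receptors (7). In GDX against intact males 11 of the 36 passed, 10 higher and 1 lower, against 6.78% of all genes higher and 6.58% lower. Of the first kind the collagen chaperone Serpinh1 (0.32 ± 0.07, 0.0105) and Fkbp14 (0.30 ± 0.10, 0.0712) rose and the prolyl 3-hydroxylase P3h3 (-0.21 ± 0.07, 0.0916) fell, with the log2 fold change, SE and edgeR adjusted p in brackets. Of the cross-linking oxidases 3 rose, Loxl1 (1.64 ± 0.35, 0.0125), Lox (1.21 ± 0.27, 0.0137) and Loxl2 (0.54 ± 0.16, 0.0484), as did Pcolce (1.05 ± 0.32, 0.0535), which speeds removal of the C-terminal propeptide. The oxidases Loxl3 (0.06 ± 0.20) and Loxl4 (0.18 ± 0.34) did not pass. The receptors that rose were the collagen-binding kinase Ddr2 (1.57 ± 0.26, 0.00554), the uptake receptor Mrc2 (0.51 ± 0.10, 0.00848) and the integrin chains Itgb1 (0.23 ± 0.06, 0.0292) and Itga1 (0.41 ± 0.13, 0.0592).

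Some of these calls rested on single males. Of the 10 fits that each leave out 1 male, P3h3 passed in 2, without GDX male 1 or intact male 3, and its log2 fold change ran over -0.27 to -0.15. Fkbp14 passed in 4 (0.24 to 0.34), without GDX male 2, 4 or 6 or intact male 5. Itga1 lost its call without GDX male 2 or 6 or intact male 1, 3 or 6 (0.34 to 0.54), and Pcolce without GDX male 5 or 6 or intact male 1, 5 or 6 (0.88 to 1.23). Loxl2 lost it without GDX male 5 or 6 or intact male 1 (0.44 to 0.61). The other 6 passed in all 10.

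With the fragment class as a term 3 partner genes passed in males (Serpinh1, Ddr2 and Itgb1) beside 2.25% of all genes higher, and within the shorter class 2 (Ddr2 and Itgb1) beside 1.27%. Of the genes that lost their call with the class as a term, Loxl1 gave 1.56, Pcolce 1.07, Lox 1.00, Loxl2 0.45, Mrc2 0.43, Fkbp14 0.22, Itga1 0.16 and P3h3 -0.20. With the meninges and fibroblast level as a term edgeR called 0 (2 at an unadjusted p under 0.05), beside 0.0268% of all genes higher. Itga1 then gave 0.53, Loxl2 0.45, Lox 0.29, Ddr2 0.25, Fkbp14 0.18, Itgb1 0.17, Mrc2 0.15, Serpinh1 0.10, Pcolce -0.01, P3h3 -0.04 and Loxl1 -0.08. The part of the class or of this tissue was not tested. After ovariectomy edgeR called 0 of 36 partner genes, with 3 at an unadjusted p under 0.05 and 0 by DESeq2, where 0.0335%, 10.2% and 1.21% of all genes passed. Between intact males and intact females 5 of 36 passed, against 4.01% of all genes: Colgalt2 (0.41 ± 0.09, 0.0212) and P3h3 (0.19 ± 0.05, 0.0435) were higher in males, and Ddr2 (-1.31 ± 0.23, 0.0101), the N-propeptidase Adamts2 (-0.76 ± 0.19, 0.0520) and Mrc2 (-0.36 ± 0.09, 0.0566) were lower. With 1 rat left out, Adamts2 passed in 3 of 11 fits, without intact male 3 or intact female 1 or 2 (-0.88 to -0.69), and Mrc2 in 5, without intact male 2 or 5 or intact female 1, 2 or 6 (-0.42 to -0.31). P3h3 lost its call without intact male 1 or 6 (0.17 to 0.22). Within the shorter class edgeR called 0 partner genes between the intact sexes, beside 0.225% of all genes. At an unadjusted p under 0.05 there were 3, and the share of all genes at that threshold is not given. The log2 fold changes there were 0.20 for P3h3, -0.65 for Adamts2, -0.98 for Ddr2, 0.22 for Colgalt2 and -0.21 for Mrc2. Between GDX males and OVX females edgeR called 0 of 36 (4 at an unadjusted p under 0.05, 0 by DESeq2), beside 0.232%, 9.37% and 0.862% of all genes. The interaction gave 0 of 37 by edgeR, with 9 at an unadjusted p under 0.05, and 1 by DESeq2, against 0.116%, 11.6% and 1.63% of all genes. For the fragment class edgeR called 0 of 36 partner genes, with 2 at an unadjusted p under 0.05 and 0 by DESeq2, beside 0.0066%, 7.72% and 0.425% of all genes. Crtap, Mia3 and Pcolce2 of the list were absent from the table.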

How the data were processed

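Ventral cervical cord of 22 rats was sequenced as single reads from a total RNA kit that keeps the strand, 1 library per rat. The deposited values are raw counts per gene that the authors made on Rnor_6.0 with Subread; their notes name TopHat2 2.0.13 for mapping and their paper names Hisat2, and settings for strand and multiply mapped reads were not found there. Genes were tested with edgeR 4.0.16 in R 4.3.3: filterByExpr by group, TMM factors, quasi-likelihood test, Benjamini-Hochberg over all genes tested, adjusted p under 0.1. The SE is the log2 fold change over the root of its F statistic. Each comparison held its own groups, and the interaction held all rats. Alternative fits used DESeq2 1.42.0, RLE size factors, a filter at 1 CPM or none, each rat left out, fragment class, RNA integrity or the meninges and fibroblast level as a term, the shorter class alone, all rats in 1 fit, and rat number as a block. Values are given for Col1a1, Col3a1, Col4a1, Col4a2, Col6a1, Col6a2, Col15a1 and Col18a1, for members that passed (at most 25 in GDX males and 10 elsewhere, else the 3 with the smallest p), and for up to 4 partner genes per role. Other members with values, such as Col14a1 between intact males and females, were chosen after their values were seen. Members and lists were chosen with earlier results of these data known. A check of the calls on simulated data was made, but its outcome is not given here and no result rests on it.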

Additional observations from a re-analysis of the deposited data

Results flagged for a closer look

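In 4 of 164 groups of rats searched, 1 rat stood far from the others, which chance gives in about 1 in 20 groups. Col5a2 was 39.2 CPM in OVX female 5 against 47 to 51.4 CPM in the other OVX females. Col4a5 was 39 CPM in GDX male 5 against 26.2 to 29.6 CPM in the other GDX males, and the gene passed the edgeR test without this rat as well. Itgb1 was 126 CPM in intact female 1 against 135 to 139.7 CPM. Col19a1 was 16.2 CPM in intact female 1 against 12.9 to 13.5 CPM.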

How the results depend on the processing

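The count of collagens that passed in GDX against intact males was 14 with RLE factors (13.4% of all genes in brackets, as in what follows). It was also 14 with no filter (7.48%) and with the filter at 1 CPM (14.1%). DESeq2 gave 15 (14.4%) and RNA integrity as a term 13 (8.45%). All rats in 1 fit gave 16 (15.4%) and the fragment class as a term 10 (5.33%). The count moved to 9 in the shorter class alone (2.83%), which holds fewer males. With the meninges and fibroblast level as a term it was 0 (0.0268%). Partner genes in that comparison moved from 11 to 3 with the class as a term, 2 in the shorter class, 6 with RNA integrity and 0 with the meninges and fibroblast level. Between intact males and females DESeq2 gave 18 collagens, and the shorter class gave 2 collagens and 0 partner genes. DESeq2 gave 2 collagens after ovariectomy, and 4 collagens and 1 partner gene for the interaction, where no filter gave 1 and 1. The summed levels moved by less than the spread between rats with unscaled totals, with totals without the most abundant gene, with each rat left out and in the shorter class alone (a setting chosen after seeing the data), and the other alternatives were not run on them. The cause was not tested.

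The deviations of rats from their group means, across genes, correlated at -0.114 to 0.0626 between rats of different groups with the same number, so the rats were not treated as paired. With the rat number as a replicate block, 10 collagens passed in GDX against intact males, beside 8.53% of all genes. Those lost were Col1a1, Col8a1, Col8a2 and Col14a1. After ovariectomy and for the interaction 0 collagens passed, and 0 of all genes. Between GDX males and OVX females 0 collagens passed, beside 0.159% of all genes. Between intact males and females the block gave 4 collagens and 2 partner genes beside 1.71% of all genes; the cause was not tested.

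Leaving out 1 rat gave 13 to 17 collagens and 7 to 13 partner genes in GDX against intact males (7 without GDX male 5 or 6 or intact male 1 or 6). Between intact males and females it gave 6 to 16 and 2 to 9. Over these fits 7.99% to 16.2% of all genes passed in GDX against intact males, and 2.33% to 5.25% between intact males and females. For partner genes between the intact sexes the counts were 2 without intact male 6, 3 without intact male 1 or intact female 3, 4 or 5, and 9 without intact female 1. The interaction gave 0 to 7 collagens and 0 to 2 partner genes (2 without GDX male 1, 1 without GDX male 2 or intact female 1). Beside these, 0.00638% to 1.75% of all genes passed for the interaction. The other comparisons gave 0 collagens and 0 partner genes throughout. Of all genes, 0% to 0.753% passed in these fits after ovariectomy. The shares were 0.154% to 0.289% between GDX males and OVX females and 0% to 0.0133% for the fragment class.

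With the meninges and fibroblast level as a term these log2 fold changes reversed: in GDX against intact males Col1a1 -0.12, Col4a2 0.15, Col8a2 -0.50, Col14a1 -0.19, Loxl1 -0.075 and Pcolce -0.010, after ovariectomy Col3a1 -0.054, and for the interaction Col1a1 -0.63, Col3a1 -0.15, Col4a1 0.054 and Col15a1 -0.065. Between intact males and females Col4a1 reversed to 0.00044 with the filter at 1 CPM and to 0.18 in the shorter class. Leaving out 1 rat reversed it as well (-0.065 to 0.056). In GDX males against OVX females the ranges were Col1a1 -0.070 to 0.28, Col3a1 -0.15 to 0.23, Col6a1 -0.13 to 0.15, Col6a2 -0.14 to 0.041 and Col18a1 -0.10 to 0.12. For the fragment class they were Col1a1 -0.17 to 0.65, Col6a1 -0.16 to 0.32, Col6a2 -0.20 to 0.13, Col15a1 -0.41 to 0.51 and Col18a1 -0.25 to 0.22. None of the reversed values passed the test, and the cause of the reversals was not tested. The 7 members with few counts were below the filter in the fit of all males, where 35 collagens were tested. Some of them entered filtered fits on other sets of rats, as 38 collagens were tested in the shorter class and 37 with all rats in 1 fit. Intervals between rats do not cover the fragment class, which differs between operated and intact rats.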
